A study of Rattus norvegicus with 8 samples.

Results

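The genes that drive and mark cell division were examined in fetal rat testes cultured with mono-(2-ethylhexyl) phthalate (MEHP), the active metabolite of a common plasticizer. Members were picked by name, as every probe annotated as a cyclin A, B, D or E, a Cdk, a Cdc gene other than Cdc42, an Mcm helicase subunit, an Aurora or Polo-like kinase, or as Hmmr, Top2a, Pcna, Mki67, Bub1b, Birc5, Rrm1 or Rrm2. The name rule, which lists Hmmr outright, was set with earlier results of these data known. This gave 104 probes for 70 genes, of 41012 probes on the array. Status suffixes of the array's names (predicted or mapped) were set aside, and 98 of the probes met the rule with the suffix kept. The name rule also takes in neighbours by spelling that are not kinases or cyclins, such as Cdk105 (now Nsa2), Mcm3ap and Aurkaip1, and these are kept apart from the cell cycle lists below.

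Testes of Sprague-Dawley rat fetuses, taken early in the third week of gestation, were explanted whole and kept for 72 h in M199 medium with gentamicin and fungizone and with vehicle (DMSO), 1 µM MEHP or 10 µM MEHP. The 8 two-colour Agilent arrays each set 1 MEHP testis against the same pool of RNA from 3 vehicle testes, with 3 testes from different litters at 10 µM, 1 testis at 1 µM, and a first and a repeat hybridization of each with the dyes exchanged. The labels give MEHP as the green dye on all arrays, and the methods give a swap within each pair without naming the array. The direction used here (MEHP green in the first hybridization, red in the repeat) was assumed, with the first taken as labelled. That the dyes were exchanged rests on the methods and on red/green ratios that ran opposite ways within each pair. Such ratios run opposite ways whichever array was swapped, so they do not tell the direction. Their correlation lay between -0.82 and -0.50 across 3668 probes above background in either channel on all arrays. Over all probes tested or read at that dose the correlations were weaker, at -0.23, -0.54 and -0.40 for testes 1, 2 and 3 at 10 µM, and for the testis at 1 µM the correlation was 0.16, so that there the ratios did not run opposite ways. With the opposite assignment every sign below would turn. The spread between control testes is not in any test, because the vehicle RNA was 1 pool.

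All values are log2 MEHP/vehicle ratios from the scanner software, with positive values higher in MEHP than in the pool. A probe was tested at 10 µM when it was well above background in either channel on at least 3 of the 6 arrays, and read at 1 µM when it was so on at least 1 of 2. Testis 2 at 10 µM stood apart from the rest. Its MEHP channel was well above background at 0.249% and 1.54% of spots on its 2 arrays, against 7.80% to 29.8% on the other 6, while the vehicle channel ranged from 9.23% to 31.9%. The median over the 9913 tested probes was 0.09, -1.13 and -0.20 in testes 1, 2 and 3, so testis 2 sat below the others at most genes. Results are therefore given for each testis, and counts also without testis 2. Setting the median of every array to 0 lowers the ratios of testis 1 slightly and raises those of testes 2 and 3, so that the means over the 3 testes lie higher, which turns the mean of 10 of 25 named genes to the other side of 0 but not that of Hmmr, Ccnd2, Cdk4, Pcna, Mcm2, Mcm6, Rrm2 or Ccnb1. Testes 1 and 2 shared a slide, and testis 3 shared the other with the testis at 1 µM.

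Cells pass from G1, in which D cyclins and Cdk4 or Cdk6 release E2F factors from the retinoblastoma protein, into S phase, in which cyclin E and Cdk2, the Mcm helicase, the clamp Pcna and ribonucleotide reductase copy the DNA. Cyclin B and Cdk1, Aurora and Polo-like kinases, topoisomerase and the spindle checkpoint then carry the cell through mitosis, which ends when the anaphase-promoting complex destroys cyclin B. In the fetal testis Sertoli cells, germ cells and interstitial cells all divide at this age. Genes of S phase and of mitosis are transcribed in separate waves, through E2F elements on the one hand and through CCAAT boxes and the cell cycle homology region (core TTTGAA) on the other.

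The promoters of 5 genes that the results turn on are shown for these letters. Each stretch is the 250 bases before the annotated start, from RefSeq on GRCr8, written 5′ to 3′ in the direction of the gene. Capitals mark TTTGAA and the CCAAT box on either strand (the box reads ATTGG on the other strand). They also mark an E2F-like run, which is GCGCGAA, and its variant with a different middle letter, which is GCGGGAA, on either strand. Hmmr lies at chr10:25665216-25665465 (minus strand), Ccnb1 at chr2:33655226-33655475 (minus strand), Cdc2a (now Cdk1) at chr20:19265043-19265292 (plus strand), Pcna at chr3:139955821-139956070 (minus strand) and Mcm6 at chr13:42404353-42404602 (minus strand).
Hmmr: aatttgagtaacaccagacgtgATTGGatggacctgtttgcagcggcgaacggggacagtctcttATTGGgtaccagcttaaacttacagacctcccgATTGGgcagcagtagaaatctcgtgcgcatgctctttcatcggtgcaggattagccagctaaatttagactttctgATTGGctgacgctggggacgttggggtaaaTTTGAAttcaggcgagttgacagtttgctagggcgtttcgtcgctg
Ccnb1: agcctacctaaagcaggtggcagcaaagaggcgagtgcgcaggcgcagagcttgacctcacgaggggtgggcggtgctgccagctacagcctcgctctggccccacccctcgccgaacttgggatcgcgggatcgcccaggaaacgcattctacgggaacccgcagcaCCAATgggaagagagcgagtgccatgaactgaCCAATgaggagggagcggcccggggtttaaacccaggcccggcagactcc
Cdc2a: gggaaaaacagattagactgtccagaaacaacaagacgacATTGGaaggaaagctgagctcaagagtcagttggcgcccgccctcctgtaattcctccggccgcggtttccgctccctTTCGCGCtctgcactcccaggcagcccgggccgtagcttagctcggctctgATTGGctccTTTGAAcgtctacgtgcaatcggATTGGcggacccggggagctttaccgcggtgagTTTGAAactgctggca
Pcna: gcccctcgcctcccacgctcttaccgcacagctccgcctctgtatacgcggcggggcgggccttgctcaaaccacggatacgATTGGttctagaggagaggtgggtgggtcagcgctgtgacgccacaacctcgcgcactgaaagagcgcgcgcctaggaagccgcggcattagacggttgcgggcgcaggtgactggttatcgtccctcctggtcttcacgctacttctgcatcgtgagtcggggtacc
Mcm6: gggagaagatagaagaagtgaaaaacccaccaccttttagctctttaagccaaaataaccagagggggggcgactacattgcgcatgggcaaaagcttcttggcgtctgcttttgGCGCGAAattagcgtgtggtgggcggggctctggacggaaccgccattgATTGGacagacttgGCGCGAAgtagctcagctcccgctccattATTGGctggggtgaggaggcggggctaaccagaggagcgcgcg
The Hmmr stretch held 4 CCAAT letters in reverse and 1 TTTGAA, which began 46 bases before the start. The Cdc2a stretch held 3 CCAAT in reverse, TTTGAA beginning 72 and 16 bases before the start, and 1 E2F-like run. Ccnb1 held 2 CCAAT and neither of the other motifs, Mcm6 held 2 E2F-like runs and 2 CCAAT in reverse, and Pcna held 1 CCAAT in reverse. None of the capitals of different motifs overlap in these 5 stretches.

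Over the lists, TTTGAA occurred in 8 of the 12 mitosis promoters and in 1 of the 11 S phase promoters that the table holds, against 16.2% of 33469 rat promoters of the same length. The E2F-like letters occurred in 6 of 11 S phase promoters and 1 of 12 mitosis promoters, against 4.48% of all. CCAAT occurred in 11 of 12 mitosis and 8 of 11 S phase promoters, against 34.0% of all. These are matches of letters, given as a description of the sequences.

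Transcripts of some S phase and mitosis genes were detected in the vehicle pool, which was the same RNA on all 8 arrays. In the vehicle channel, Pcna, Mcm3, Cdk2 and Ccne1 of 15 S phase genes and Cdc2a, Hmmr, Cdc20, Plk1 and Top2a of 13 mitosis genes were well above background on all 8 arrays, as was Ccnd2, a D cyclin. Other mitosis genes were so on fewer arrays, such as Mki67 on 2, Aurkb on 3 and Birc5 on 5. Of the 104 member probes, 18 were so on all 8 arrays and 31 on none. No probe was read at either dose for 18 genes, which were Ccna1, Ccne2, Cdc14a, Cdc14b, Cdc25a, Cdc25c, Cdc27, Cdc2l1, Cdc40, Cdc6, Cdc7, Cdc73, Cdk10, Cdk5, Cdk5r1, Cdk6, Mcm5 and Plk3. The label of a testis was borne out for Sertoli cells, with Amh, Inha and Sox9 of 8 markers above background on all 8 arrays in vehicle, but Fshr, another Sertoli marker, was so on none. The paper gives Inha as expressed in fetal Leydig cells as well. Of 7 Leydig markers Insl3 alone was above background on all 8 arrays, and Lhcgr and Nr5a1 were on none. Germ cells were thinly covered, since of 5 markers none was above background on all 8 arrays, and Pou5f1, Kit and Nanos3 were on none. Of the 5, 1 was tested at 10 µM and 2 were read at 1 µM.

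At 10 µM, 58 member probes of 44 genes were tested, and 1 of them, Hmmr, was called by limma at an adjusted p under 0.05. Among all tested probes 0.373% were called higher and 1.87% lower. No member probe was called lower, while 12 member probes had an unadjusted limma p under 0.05 (20.7%), 11 of them with a ratio below 0 (19.0%). These shares were near those of all tested probes, 17.6% at that p and 15.9% with a ratio below 0. Members below 0 in all 3 testes numbered 21 of 58 (36.2%), the same share as the background of 36.2%, and 1 was above 0 in all 3, against 3.78% of all tested probes. Without testis 2, 3 member probes were called higher and 6 lower, where 7.45% of all tested probes were called higher and 9.85% lower. Whether fewer cells of a type or less RNA per cell lies behind a ratio cannot be told apart in whole explants.

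Hmmr encodes the hyaluronan-mediated motility receptor, a spindle protein made chiefly around mitosis. Its ratio was 0.53 and 0.29 in the hybridizations of testis 1, 2.82 and 4.88 in those of testis 2, and 1.18 and 1.90 in those of testis 3. All 6 were above 0, and testis 2 stood far above the other two. They averaged 1.93 ± 1.75 (SD, n = 3 testes) at a limma adjusted p of 0.0442. Without testis 2 the mean was 0.97 and the limma adjusted p was 0.0918, and the call was likewise lost without testis 1 (limma adjusted p = 0.264) or testis 3 (limma adjusted p = 0.851). With array medians set to 0 the limma adjusted p was 0.0619. The testis at 1 µM gave -0.55 and 0.42, on either side of 0, and the difference of 2.00 between doses had a limma adjusted p of 1.00.

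The scanner signals behind Hmmr were well above background in both channels of all 8 arrays, at 143 to 753 units over a local background of 44.0 to 67.0. In testis 2 the background-subtracted signals, before dye normalization, gave -2.82 in the first and -0.08 in the repeat hybridization, and the deposited ratios lay 5.64 and 4.95 above these. For Pcna in the same testis the deposited ratios lay 1.37 and 0.89 above the unnormalized ones, and for Cdc2a 2.42 and 1.34. The gap between deposited and unnormalized ratios was thus several log2 units larger at Hmmr than at these members in this testis. That gap holds the scanner software's own background subtraction as well as its dye normalization. Pcna and Cdc2a were also well above background in MEHP on neither testis 2 array, so their gaps are not a like measure. Hmmr was the 1 member probe of 58 that stood clear of background in MEHP on both testis 2 arrays. Over all genes 68 tested probes did, and 19 of these were among the 37 called higher. The part of the scanner software's processing in the Hmmr result was not tested. With loess on normexp-corrected signals the Hmmr mean was 1.24 (limma adjusted p = 0.291). A second Hmmr probe was not read at either dose.

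**Figure D1:**
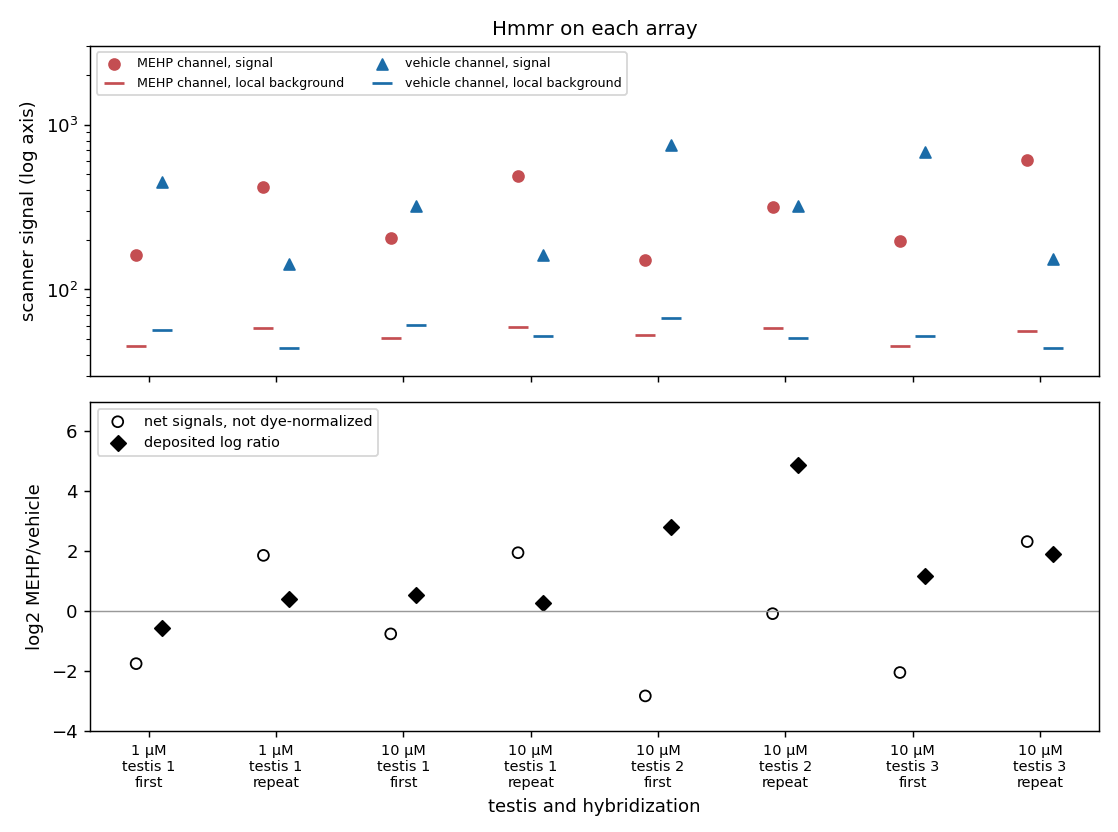
Hmmr on each of the 8 arrays. The upper panel shows the scanner signal of the MEHP and vehicle channels with their local backgrounds on a log axis, and the lower panel the log2 MEHP/vehicle ratio from the net signals (open circles) and as deposited (diamonds), each point 1 array. The deposited ratios of testis 2 lie 5.64 and 4.95 above the net ratios, and all 6 deposited ratios at 10 µM are above 0.

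Of the G1 regulators, cyclin D2 and Cdk4, which together phosphorylate the retinoblastoma protein, were below 0 in every testis. Ccnd2 was -0.77, -1.88 and -1.66 in testes 1, 2 and 3, averaging -1.44 ± 0.59 (SD, n = 3) at a limma adjusted p of 0.134. Cdk4 was -0.79, -1.36 and -1.69, averaging -1.28 ± 0.46 (SD, n = 3) at a limma adjusted p of 0.193, and its second probe gave -0.97, -1.13 and -1.74. Neither passed the test over the 3 testes. Each of the 6 hybridizations lay below 0 for both genes. That held for 19.3% of all tested probes and 15.5% of member probes. With testis 2 left out both genes fell by the test, Ccnd2 with a mean of -1.22 (limma adjusted p = 0.0400) and Cdk4 with -1.24 (limma adjusted p = 0.0374). In that fit 9.85% of all tested probes were called lower. The limma adjusted p of Ccnd2 was 0.310 without testis 1, 0.851 without testis 3 and 0.125 with array medians set to 0. That of Cdk4 was 0.361, 0.857 and 0.204 in the same fits.

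The other D cyclins did not share that pattern. Ccnd1 was 0.75, -1.07 and -0.08, with a mean of -0.13 ± 0.91, and its second probe had a mean of 0.34 ± 1.22 (SD, n = 3 each). Ccnd3 was 1.41, -0.89 and -0.37, so that testis 1 lay above 0 and testes 2 and 3 below. Cdk6, the other kinase that pairs with D cyclins, was read at neither dose. The G1 median over 4 genes was -0.01, -1.21 and -1.02 in testes 1, 2 and 3.

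Of the S phase genes, 13 probes of 10 genes were tested and none was called, with 4 probes at an unadjusted limma p under 0.05, all below 0, where 15.9% of all tested probes were so. Pcna encodes the sliding clamp of the DNA polymerases. Its first probe, the brighter, gave -0.56, -2.28 and -0.98 in testes 1, 2 and 3, averaging -1.27 ± 0.89 (SD, n = 3) at a limma adjusted p of 0.196. The second probe gave -1.62, -1.05 and -2.26, a mean of -1.64 ± 0.61 (limma adjusted p = 0.0833), and -1.94 without testis 2 (limma adjusted p = 0.00901). The limma adjusted p of that probe was 0.335 without testis 1, 0.851 without testis 3 and 0.123 with array medians set to 0. All values of both Pcna probes were below 0 by testis, and the probes differed in which testis was lowest. The testis 2 value of the second probe averages -2.09 in the first hybridization with a repeat listed at exactly 0, so its rank is not read.

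The Mcm proteins form the helicase ring that opens replication origins. Mcm2 was -0.69, -1.61 and -1.12, averaging -1.14 ± 0.46 (SD, n = 3) at a limma adjusted p of 0.261. Mcm6 was -1.06, -0.22 and -1.97, with a mean of -1.08 ± 0.87 (limma adjusted p = 0.295), and fell by the test when testis 2 was left out (mean -1.51, limma adjusted p = 0.0194). Its limma adjusted p was 0.484 without testis 1, 0.930 without testis 3 and 0.437 with array medians set to 0. The second Mcm2 probe gave -0.56, 0.01 and -1.64 in testes 1, 2 and 3. Testis 2 was thus nearest to 0 in Mcm6 and in that probe, and farthest from it in the brighter Mcm2 probe. For these probes MEHP was well above background on neither testis 2 array, and the Mcm6 hybridizations of testis 2 gave -1.48 and 1.04. Those of the second Mcm2 probe gave 0.03 and a repeat listed at exactly 0. Mcm3 was 0.55, -1.66 and -0.21, Mcm7 was -0.37, 0.57 and -0.83, and Mcm8, a related helicase with a role in repair, was 0.04, -1.01 and -0.36. The ring subunits thus did not share a sign across testes, and Mcm5 and, at 10 µM, Mcm4 were not read.

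Rrm1 and Rrm2 are the large and small subunits of ribonucleotide reductase, which makes the deoxynucleotides. Rrm2 was -0.29, -0.86 and -2.42, averaging -1.19 ± 1.10 (SD, n = 3) at a limma adjusted p of 0.237, with testis 3 lowest. Rrm1 was 0.17, -0.86 and -1.53, a mean of -0.74 ± 0.86 (limma adjusted p = 0.509). Cyclin E1 and Cdk2, the pair that starts S phase, differed from the clamp and the reductase. Ccne1 was 0.53, -2.34 and 0.05, Cdk2 was 0.45, -2.15 and 0.67, and both lay above 0 in testes 1 and 3. The second Ccne1 probe had a mean of 0.34 against -0.59 for the first.

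Of the mitosis genes, 13 probes of 10 genes were tested and Hmmr alone was called. The B cyclins, which activate Cdk1 for entry into mitosis, were below 0 in all 3 testes. Ccnb1 was -0.79, -1.93 and -1.30, averaging -1.34 ± 0.57 (SD, n = 3) at a limma adjusted p of 0.169 with all 6 hybridizations below 0, and Ccnb2 was -0.34, -0.87 and -1.60, a mean of -0.93 ± 0.63 (limma adjusted p = 0.375). The Ccnb2 hybridizations of testis 1 gave -1.91 and 1.24, and MEHP was well above background at Ccnb2 on 1 of 6 arrays. Cdc2a, the kinase of the B cyclins, was -0.01, -1.91 and -0.12, so that testes 1 and 3 were close to 0 and testis 2 alone was low. Its adjusted p was 0.551 by limma.

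Bub1b, a kinase of the spindle checkpoint, was -0.65, -1.86 and -0.35, with a second probe at -0.23, -1.58 and -1.09. Cdc20, which activates the anaphase-promoting complex, was -0.38, -0.14 and -0.60, with a mean of -0.38 ± 0.23 (SD, n = 3). Both genes lay below 0 in each testis without passing the test, but the hybridizations disagreed in places. They gave -1.02 and 0.74 for Cdc20 in testis 2, and -1.72 and 1.26 for the second Bub1b probe in testis 1. Plk1, a mitotic kinase, was 0.21, -1.39 and 0.34, Birc5 (survivin) 0.12, -1.08 and -0.01, and Top2a, which untangles chromosomes, 0.36, -1.07 and -0.59. In these 3 genes testis 2 was the lowest, and testis 1 lay above 0. The second Top2a probe had a mean of 0.16 against -0.43. Mki67, whose protein is the usual stain for cycling cells, was 1.76, -0.64 and -0.31, averaging 0.27 ± 1.30 (SD, n = 3) at a limma adjusted p of 0.854. Hmmr and Mki67 were the mitosis genes with a mean above 0 at 10 µM on the brightest probe, and Birc5, Cdc20, Plk1 and Top2a joined them once the median of every array was set to 0.

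**Figure D2:**
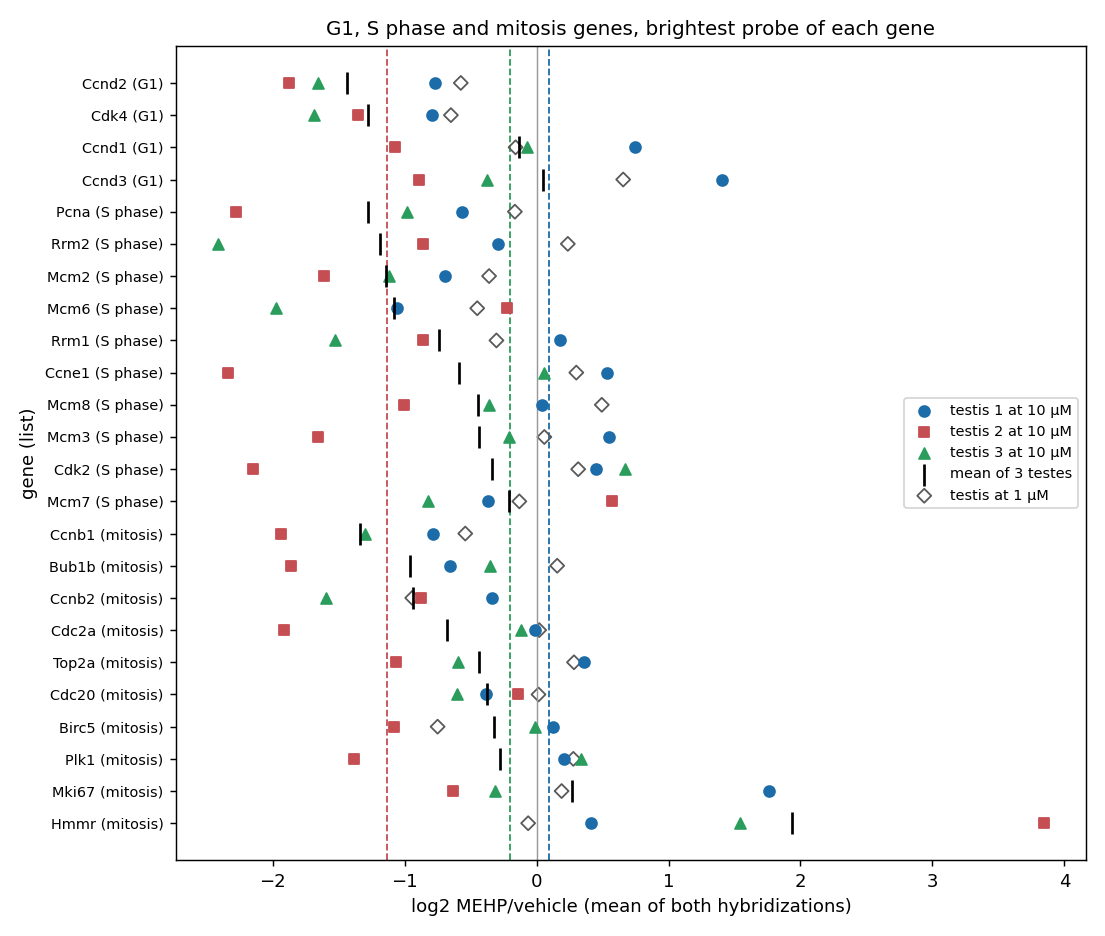
Log2 MEHP/vehicle of the 24 tested G1, S phase and mitosis genes (brightest probe). Filled symbols are the 3 testes at 10 µM, black bars their means and open diamonds the testis at 1 µM, each testis the mean of both hybridizations, and dashed lines are the medians of all tested probes in testes 1, 2 and 3 (0.09, -1.13 and -0.20). Testis 2 is often the lowest, and Hmmr in testis 2 lies at 3.85.

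S phase was set against mitosis in each testis by the median of each list, 10 genes each. The S phase median was -0.13, -1.31 and -0.90 in testes 1, 2 and 3, a mean of -0.78 ± 0.60 (SD, n = 3), and the mitosis median was 0.06, -1.07 and -0.33, a mean of -0.45 ± 0.57. All tested probes had -0.41 ± 0.64 on the same measure. S phase lay below mitosis in each testis, by 0.18, 0.23 and 0.57 in size, a mean difference of -0.33 ± 0.21. The difference became 0.04 on loess-normalized, normexp-corrected signals and 0.04 without the filter on dim probes, so its direction depended on the processing. No test was run on it, since both lists were chosen with earlier results of these data known and the genes are not replicates.

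The lists of genes outside the name rule gave the following counts by limma. Of all tested probes 1.87% were called lower, 17.6% had an unadjusted limma p under 0.05, and 36.2% were below 0 in all 3 testes. Of 19 tested replication genes 1 was called, Gmnn (geminin, which blocks relicensing of origins), which fell, with ratios of -2.23, -2.37 and -1.20 in testes 1, 2 and 3, averaging -1.93 ± 0.64 (SD, n = 3) at a limma adjusted p of 0.0414, and 9 were below 0 in all testes. Gmnn was well above background in MEHP on 2 of 6 arrays, and its limma adjusted p was 0.0600 with array medians set to 0, 0.311 without testis 1, 0.0147 without testis 2 and 0.851 without testis 3. Of 17 other mitosis genes none was called, 3 had an unadjusted p under 0.05, and 6 were below 0 in all testes. Of 16 CDK inhibitors and genes of the Rb and E2F families none was called, with 1 at an unadjusted p under 0.05 and 5 below 0 in all testes. Their medians were -0.54 ± 0.58, -0.48 ± 0.84 and -0.53 ± 0.90, in that order, as means over testes. All lie within 1 SD of the value for all tested probes. Among markers of somatic cell types, 5 of 6 tested Sertoli markers and 3 of 4 tested Leydig markers were below 0 in all testes, with list medians of -0.35, -1.04 and -1.05 and of -0.93, -1.46 and -1.97 in testes 1, 2 and 3. By limma 1 Leydig marker was called lower and no Sertoli marker was called. The Sertoli list includes Inha, which the paper places in both cell types. With array medians set to 0 the Sertoli medians were -0.45, 0.15 and -0.77, so that testis 2 turned, and the Leydig medians were -1.04, -0.27 and -1.69. Their part in the cell cycle values was not tested.

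**Figure D3:**
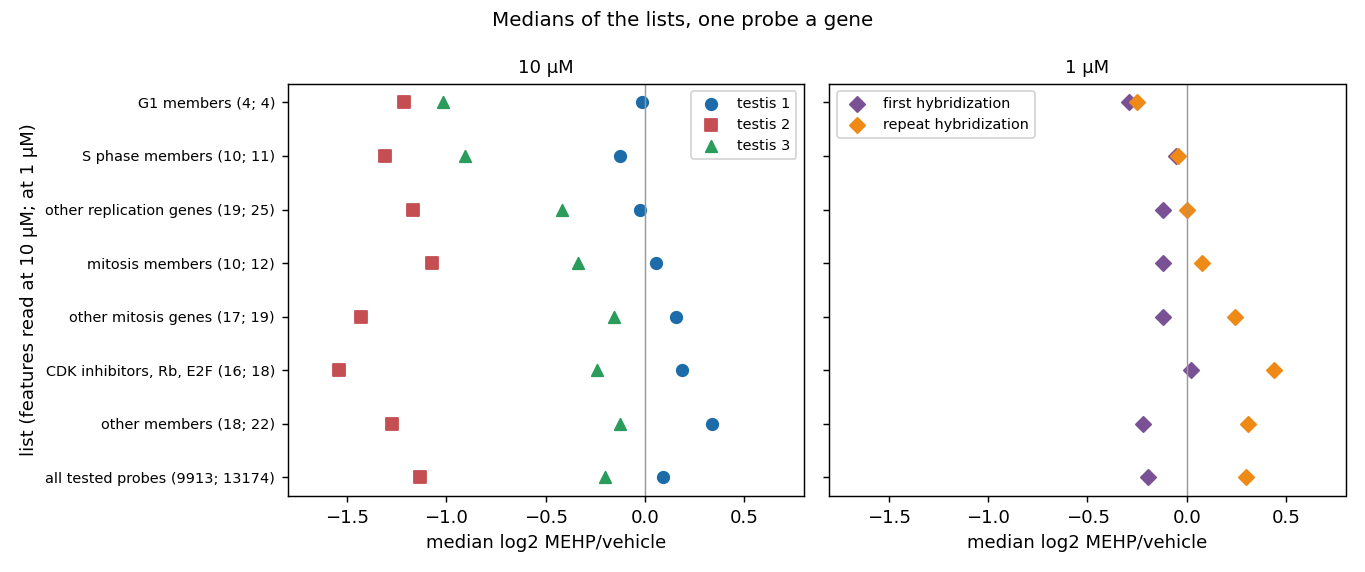
Median log2 MEHP/vehicle of each list, for the 3 testes at 10 µM (left) and the first and repeat hybridizations of the testis at 1 µM (right), with the number of genes read at each dose in brackets (probes for all tested probes). S phase members lie below mitosis members in every testis at 10 µM, by -0.33 on average, and both hybridizations at 1 µM lie near -0.05 for S phase.

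Subunits of the anaphase-promoting complex were mostly near background. Cdc26 was -0.37, -2.14 and -0.76 and Cdc16 was 0.33, -0.71 and 0.30 at 10 µM, while Cdc23 was read at 1 µM alone and Cdc27 at neither dose. None was called. The remaining 24 tested probes with a Cdk, Cdc, cyclin A, Aurora or Polo-like name, 18 genes, held no call over the 3 testes, with a lowest limma adjusted p of 0.131 for the second Cdk7 probe. Their brightest probes ranged from -0.88 to 1.03 in mean. Without testis 2, Aurkc, Cdk5rap2 and Mcm3ap were called higher and Cdc37 lower. Mcm3ap, a nuclear export factor named for its binding of Mcm3, was 1.41, -3.18 and 1.83, so that testis 2 opposed testes 1 and 3 by over 4 log2 units. Cyclin A2, which acts in both S phase and mitosis, was -0.28, -1.24 and -0.29.

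At 1 µM, 70 member probes of 52 genes were read in the single testis, which gives no test. None was at least 1.5-fold higher in both hybridizations, against 4.05% of the 13174 probes read. At least 1.5-fold lower in both were 4 member probes (5.71%), against 2.96% of all. They were Ccnb2 at -0.60 and -1.29, the second probe of Pcna at -0.65 and -0.77, the second of Cdk4 at -0.62 and -0.64, and the second of Cdk9, a transcription kinase, at -2.54 and -0.73. The brighter probe of Pcna was nearer to 0 (-0.13 and -0.20), that of Cdk4 gave -0.32 and -0.98, and that of Cdk9 gave -0.07 and -0.60. At 10 µM the same Ccnb2, Pcna, Cdk4 and Cdk9 probes were below 0 in all 3 testes, as were 36.2% of all tested probes, with the vehicle pool shared between doses. In testis 1 the hybridizations gave -1.91 and 1.24 for Ccnb2 and -1.91 and 0.76 for that Cdk9 probe. Those of the Pcna and Cdk4 probes were both below 0 there.

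At 1 µM both hybridizations were below 0 for 18 member probes (25.7%, against 22.8% of all probes read) and above 0 for 14 (20.0%, against 25.6%). Of the 70, 12 were past 1.5-fold in opposite directions (17.1%, against 19.3%), so the counts of members were near those of all probes. Ccnd2 gave -0.72 and -0.43, Mcm6 -0.26 and -0.64, and Ccnb1 -0.32 and -0.76, all below 0. Cdk2 gave 0.28 and 0.35, Plk1 0.21 and 0.34, Top2a 0.49 and 0.08, and Cdc25b, a phosphatase that activates Cdk1 and was read at this dose alone, 0.36 and 0.84, all above 0. Aurkb, the kinase of the chromosomal passenger complex, gave 0.76 and -1.26, Mcm8 -0.89 and 1.88, and Mcm4 0.59 and -0.18, where the hybridizations disagreed. The S phase minus mitosis median was 0.07 in the first and -0.12 in the repeat hybridization. Of 57 member probes tested for a difference between doses none was called by limma, and none had an unadjusted p under 0.05, against 0.266% of all probes, the lone testis being taken to vary like the 3 at 10 µM.

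Agreement between the hybridizations of a testis sets how finely single members can be read. The sign was the same in both for 35, 37 and 40 of 58 member probes in testes 1, 2 and 3, or 60.3%, 63.8% and 69.0%, against 61.2%, 67.1% and 64.7% of all tested probes. At 1 µM it was the same for 32 of 70 (45.7%), against 48.4% of all probes read. A ratio of exactly 0 counted as not the same sign, for members and for all probes, which lowered the member share in testis 2. Across probes, which are not independent replicates, the Pearson correlation of the first with the repeat was 0.13, 0.68 and 0.42 at 10 µM and -0.33 at 1 µM. The repeat, with MEHP on red, read higher than the first by a median of 0.41, 0.83 and 0.44 at 10 µM and 0.38 at 1 µM over member probes. In testis 2, 14 of the 58 member probes were listed at exactly 0 in the repeat hybridization. Among these were both Ccnd1 probes, the second probes of Pcna, Mcm2, Ccne1 and Top2a, and the brightest probes of Mcm8, Rrm1, Rrm2, Ccnb2 and Cdc16. Their testis 2 values average the first hybridization with that 0 and so lie nearer to 0 than the first alone.

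**Figure D4:**
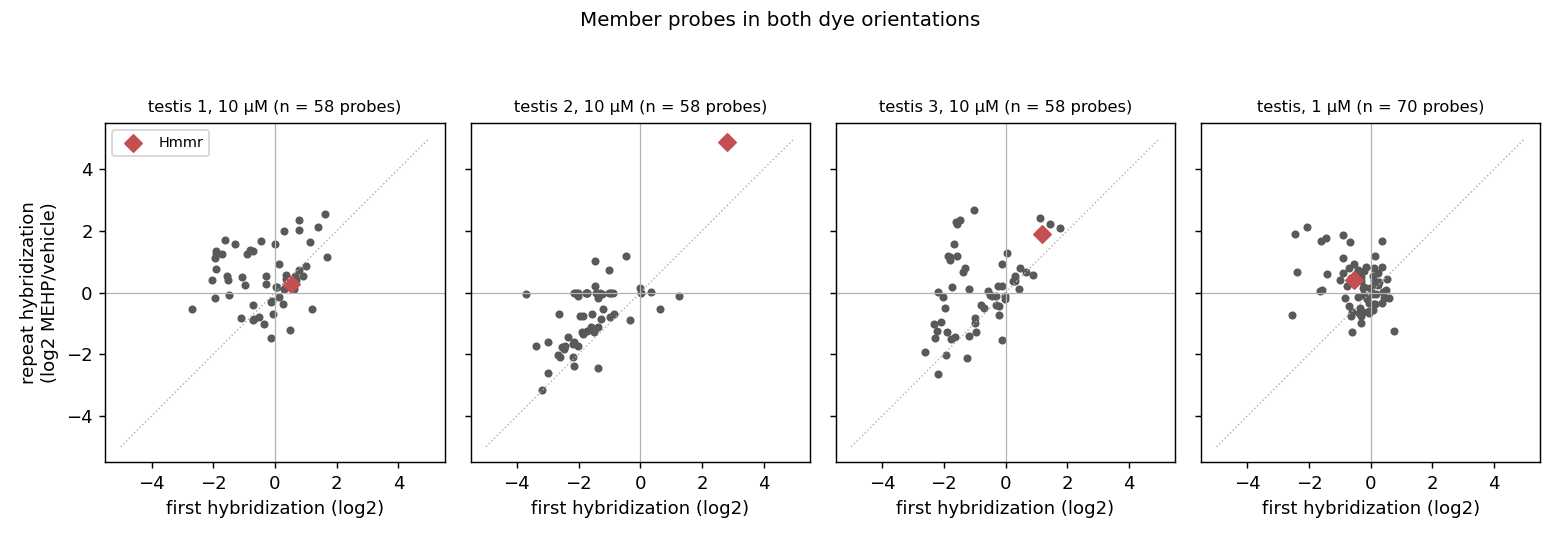
Each member probe's log2 MEHP/vehicle in the first (horizontal) and repeat (vertical) hybridization of the same testis, with equality dotted and Hmmr as a red diamond. The cloud lies low and left in testis 2, where Hmmr is at 2.82 and 4.88, and runs downward to the right at 1 µM (r = -0.33).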

How the data were processed

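Members and lists were chosen with earlier results of these data known. RNA from 1 MEHP testis a pair of arrays and from the vehicle pool was amplified, labelled with Cy3 or Cy5 and hybridized to Agilent Whole Rat Genome arrays. Per the file headers, the authors deposited scanner output from Agilent Feature Extraction (version 9.1 in the submitters' processing notes), with log10 red/green ratios, already background-subtracted and dye-normalized, the error of each ratio and other flags for outliers, saturation and background, and mean and background signal intensity for each dye. Signed fold changes and p-values of the authors' own comparison were also deposited and not used.

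Ratios were turned to MEHP/vehicle, converted to log2 and averaged over the spots of a probe and both hybridizations of a testis, without control spots and outlier flags. The ratio was tested against 0 with limma 3.58.1 (R 4.3.3), Benjamini-Hochberg adjusted over 9913 probes. The fit was tested on simulated data. No pseudocount was used, and the number of arrays limits precision. One probe stood for a gene, the one with the brightest mean signal. Named genes were those of the G1, S phase and mitosis lists read at either dose, members called at 10 µM and members past 1.5-fold at 1 µM, with other probes where the direction differed. Symbols were updated through RefSeq, by accession for 59 member probes and by symbol or synonym for 45. Fits with another background correction, filter, centring, dye assignment, error model or set of testes were run as alternatives.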

Additional observations from a re-analysis of the deposited data

How the results depend on the processing

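The call of Hmmr was kept with outlier spots included, in the repeat hybridizations alone and with the methods' error-weighted mean. The number of member probes called at 10 µM was 0 with arrays centred on their medians, with normexp and loess, with loess and no background correction, with MEHP taken as Cy3 on all arrays, with no filter on dim probes, with the filter on every array, in the first hybridizations alone, with a spread given to the control pool, with an intensity trend, with the slide as a block and with all 6 arrays and the testis as a random block. It was 35 by the error-weighted mean, which takes its error from within arrays, or 30 at its unadjusted p under 0.01, and 0 to 9 with 1 testis left out. The 9 came without testis 2, where 7.45% of all tested probes were called higher and 9.85% lower. Without testis 2 and with arrays centred, an alternative chosen after seeing the data, the count was 16, and Hmmr was called. The shares of all tested probes called by the error-weighted mean and in this last fit are not given here, so these counts are not read as a result about the members. Hmmr itself turned to -0.42 with MEHP on Cy3 on all arrays. The 4 member probes past 1.5-fold at 1 µM became 1 with centring, 0 with either loess alternative or a 2-fold limit, and 12 with MEHP on Cy3 on all arrays.

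The S phase median at 10 µM became -0.061 with normexp and loess and -0.081 with loess alone, and ranged from -1.11 to -0.52 with 1 testis left out. The mitosis median ranged from -0.70 to -0.14. The S phase minus mitosis difference at 10 µM was 0.035 with normexp and loess, -0.0032 with loess alone, 0.043 with no filter, -0.016 with the filter on every array and -0.11 in the repeat hybridizations alone, and ranged from -0.40 to -0.21 with 1 testis left out. At 1 µM it became 0.26 with all probes of a gene averaged. No member differed between doses by limma in any of the fits run, which included leaving out each testis and centring. The cause of these changes was not tested. No paired analysis was possible because the samples at 1 µM carry no replicate numbers and the control was 1 pool. Low signal in the MEHP channel, above all in testis 2, limits what can be read of dim genes.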
